A study of Mus musculus with 20 samples.

Results

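In a mouse model of bladder cancer measured on 20 arrays, 10 genes that mark the epithelium of the lung were followed on every array, to see whether any metastasis carried more of their RNA than the bladder did. The 10 genes are Sftpc, Sftpb, Sftpa1, Sftpd, Scgb1a1, Scgb3a2, Nkx2-1, Napsa, Lamp3 and Cldn18, listed by name and matched by the symbol of the array's annotation. Each had 1 row on the array, out of 30142 named genes. The series holds 20 samples of FVB/N mice: 1 treated metastasis, 4 metastases, 3 treated bladders, 7 bladder tumors and 5 control bladders. All mice, controls included, carried a genotype that includes floxed Rb (Rbf/f) and lacks p107 (p107-/-), a relative of Rb. Bladder tumors arose after an adenovirus that codes for Cre recombinase, the enzyme that cuts out floxed DNA, was placed in the bladder, and control bladders had no such inoculation in their labels. Treated bladders had been inoculated as well, and their mice, like the mouse of the treated metastasis, received 2 drugs: CM272, which blocks G9a (a histone methyltransferase) as well as DNA methylation enzymes, and the platinum drug cisplatin. CM272 was given at 5 mg/kg each day over 30 days, and cisplatin weekly at 6 mg/kg. The labels call the metastases metastatic tumor and name no organ, and these sources give neither ages nor whether animals were pooled. Samples of a group are numbered without a statement that each is another animal, so the p-values reflect spread among samples that could be technical in part.

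Lung epithelium has a few secretory cell types with products found almost nowhere else. Alveolar type 2 cells make surfactant, a film of lipid and protein that keeps the air sacs from collapsing: Sftpb and Sftpc code for its hydrophobic proteins, Sftpa1 and Sftpd for collectins that bind microbes. Club cells of the airways secrete Scgb1a1 and Scgb3a2, small secretoglobins. Nkx2-1 is the homeobox factor that directs lung and thyroid development and binds the promoters of surfactant and secretoglobin genes. Napsa is an aspartic protease that processes surfactant proproteins and is also made in kidney, Lamp3 is a lysosomal membrane protein of type 2 cells and mature dendritic cells, and Cldn18 is a tight junction protein with a lung form and a stomach form. In normal lung the surfactant and secretoglobin RNAs are among the most abundant of all, so a piece of lung taken along with a metastasis would carry them.

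The promoters of 2 surfactant genes are shown because they hold the letters that Nkx2-1 is known to bind, and the factor and these genes can then be read side by side below. RefSeq windows of GRCm38.p6 from 250 bases before to 50 bases after the gene start were matched for 5 of the 10 genes (Sftpb, Sftpa1, Nkx2-1, Lamp3 and Cldn18, the last with both of its starts). The letters CTCAAG and CAAGTG were searched on both strands, matches being allowed to overlap; 26.4% of all 32851 windows hold at least 1 match. Sftpb held 2 matches, Sftpa1 held 3, the downstream start of Cldn18 held 1, and the other windows held 0. Capitals mark the matches, of which those reading CACTTG are CAAGTG on the opposite strand. Sftpb lies on the plus strand at chr6:72304360-72304659 and Sftpa1 on the plus strand at chr14:41131538-41131837.
Sftpb: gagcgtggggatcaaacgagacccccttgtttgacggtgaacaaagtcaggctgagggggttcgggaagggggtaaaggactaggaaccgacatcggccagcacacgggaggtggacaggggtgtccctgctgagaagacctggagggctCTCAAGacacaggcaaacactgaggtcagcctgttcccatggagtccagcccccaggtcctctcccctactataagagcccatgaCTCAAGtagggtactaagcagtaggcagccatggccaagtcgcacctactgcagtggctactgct
Sftpa1: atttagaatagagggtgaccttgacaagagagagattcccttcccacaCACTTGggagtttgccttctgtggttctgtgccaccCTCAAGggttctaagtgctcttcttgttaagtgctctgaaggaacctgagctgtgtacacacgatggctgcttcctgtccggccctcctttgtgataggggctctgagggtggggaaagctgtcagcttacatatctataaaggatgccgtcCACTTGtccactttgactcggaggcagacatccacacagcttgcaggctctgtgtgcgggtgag
A match is a description of these letters only. CM272 also acts on DNA methylation, and the number of CG pairs that could carry it was 8 in the Sftpb window and 5 in the Sftpa1 window, against a median of 7 over all windows.

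Some arrays of the metastases, bladder tumors and control bladders stand apart, while none of the treated arrays does. On 8 arrays (metastasis 3 and 4, bladder tumor 3, 4 and 5, control bladder 4, 5 and 6) the deviations of all genes from their 20-array means had a correlation with those of any other array of at most 0.14, while in the remaining 12 the highest such correlation was 0.33 to 0.61. Results of the 10 genes are therefore given with and without these 8. Without them 2 metastases, 3 treated bladders, 4 bladder tumors and 2 control bladders are left in the tests, and Xist, the RNA of the inactive X chromosome of females, differed in that fit. Its limma difference was -6.08 in bladder tumor minus control bladder (adjusted p = 3.59e-06), -6.20 in metastasis minus control bladder (adjusted p = 1.2e-05) and -2.57 in metastasis minus all bladder groups (adjusted p = 0.0011), so sex and group cannot be told apart in these 3. Medians of the arrays over all rows ran from 5.07 to 5.42. Values are RMA values on the log2 scale, on which 1 unit is 2-fold; values of different genes were not ranked against each other, since each row has its own probes. The urothelial gene Upk1a, part of the bladder's plaque lining, read 4.29 in the treated metastasis and 5.31 to 7.87 in the metastases. It read 8.10 to 11.1 in treated bladders, 5.37 to 13.9 in bladder tumors and 7.83 to 12.1 in control bladders. Some bladder tumors therefore lay no higher than the metastases. On the 8 arrays that stand apart Upk1a read 7.42 to 8.41 in metastases, tumors and controls alike, so it shows little contrast between tissues there. Other urothelial genes, named after their values were seen, were mixed. In the treated metastasis Upk2 (4.47) and Upk3a (3.24) lay, like Upk1a, below every bladder array. So did Krt5 (4.66), Krt7 (6.08), Krt8 (5.60), Krt18 (4.14), Krt20 (4.59) and Psca (3.97), and Upk1b and Upk3b were the exceptions. Upk3b read 8.18 in the treated metastasis and 7.90 in metastasis 2, above the highest bladder array at 7.48. It read 5.71, 6.37 and 6.36 in metastasis 1, 3 and 4. Upk1b read 10.01 in the treated metastasis and 11.59 in metastasis 2, inside the bladder range of 6.59 to 13.44.

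No metastasis showed the 10 genes at a level clear of the bladder arrays. These are bulk samples, in which fewer cells of a type and less RNA per cell cannot be told apart. In metastasis 1, 2 and 3 and in the treated metastasis, 0 of the 10 genes exceeded the highest of the 15 bladder arrays, a mark passed by 10.3%, 6.2%, 5.66% and 5.92% of all genes on those arrays. In metastasis 4 the mark was passed by 2 of the 10, against 5.01% of all genes: Lamp3 by 0.09 and Sftpd by 0.01 on the log2 scale. Both excesses are smaller than the SD of the gene over the bladder arrays, which was 0.21 for Lamp3 and 0.18 for Sftpd (n = 15). None of the 10 reached 1 log2 unit above the highest bladder array on any metastasis, while 0.498% of genes did so on metastasis 1, 0.179% on metastasis 2 and 0.0962% on the treated metastasis. On metastasis 3 and 4, which belong to the 8 arrays that stand apart, few genes of any kind reached that margin: 0.0% on metastasis 3 and 0.00995% on metastasis 4, where the genes were Gm3965, Olfr764-ps1 and Olfr766-ps1 (named after their values were seen). In these 2 samples the absence of an excess therefore says less than in the other 3. No member had all 4 metastases above all 15 bladder arrays, which 0.0133% of all genes did (Card19, Fbxo4, Hnrnph2 and S1pr5, likewise named after their values were seen).

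**Figure D1:**
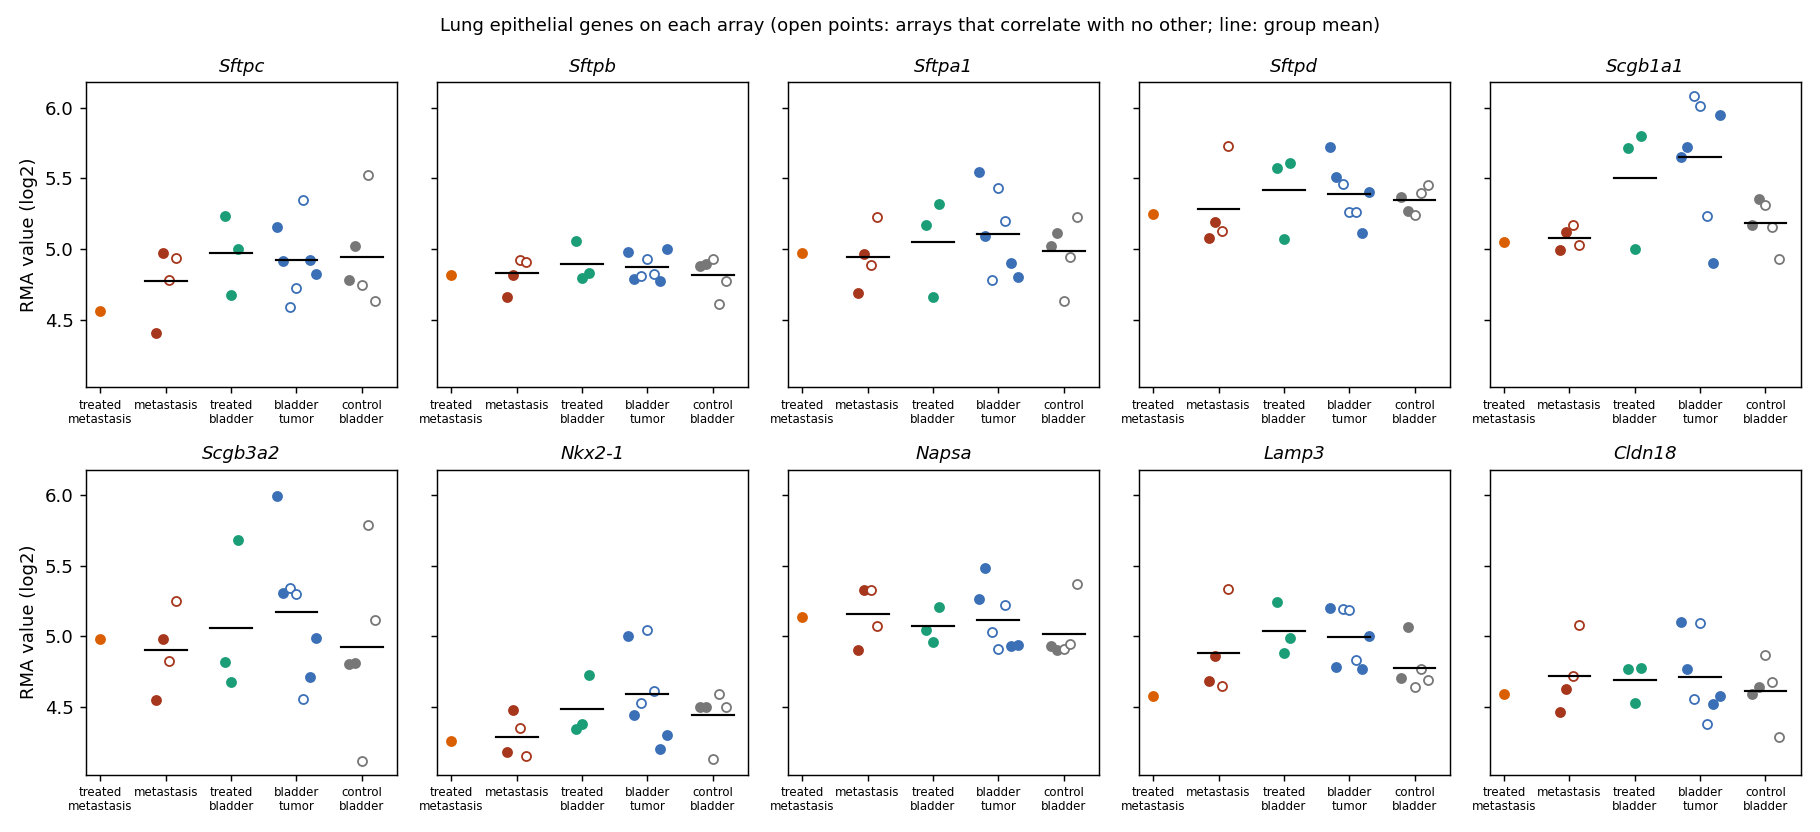
Each panel plots 1 gene, with the RMA value (log2) of every array by group; lines are group means, and open points are the 8 arrays that correlate with no other. All 200 values lie between 4.12 and 6.08, and the metastases lie within or below the range of the bladder arrays, except Lamp3 and Sftpd in metastasis 4.

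Among the hydrophobic surfactant proteins, Sftpc, the most specific product of type 2 cells, read 4.56 in the treated metastasis and 4.40, 4.97, 4.78 and 4.93 in metastasis 1 to 4. It read 5.23, 4.67 and 5.00 in the treated bladders, 4.59 to 5.34 with a median of 4.91 in the bladder tumors, and 4.78, 5.02, 4.75, 5.52 and 4.63 in the control bladders. Metastasis 1 was the lowest and control bladder 5 the highest of all 20 arrays, and the groups overlapped. The mean was 4.77 ± 0.26 in metastasis (SD, n = 4), 4.97 ± 0.28 in treated bladder (n = 3), 4.92 ± 0.26 in bladder tumor (n = 7) and 4.94 ± 0.35 in control bladder (n = 5). Sftpb, without which surfactant does not spread, was the flattest of the 10: it read 4.81 in the treated metastasis and 4.66, 4.81, 4.92 and 4.91 in the metastases, against 4.61 to 5.05 with a median of 4.83 over the 15 bladder arrays. Its range of 0.44 over the 20 arrays is narrower than that of all but 6.52% of genes.

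Of the collectins, Sftpa1 read 4.97 in the treated metastasis and 4.69, 4.97, 4.89 and 5.22 in the metastases, against 4.63 to 5.54 with a median of 5.09 over the bladder arrays, the highest being bladder tumor 1. Sftpd, which is also made at low levels by other mucosal surfaces, read 5.25 in the treated metastasis and 5.08, 5.19, 5.13 and 5.73 in the metastases. In bladder it spanned 5.57, 5.07 and 5.61 in the treated samples, 5.11 to 5.72 with a median of 5.40 in tumors, and 5.37, 5.27, 5.24, 5.39 and 5.45 in controls. Metastasis 4 and bladder tumor 1 were level at the top, and the other 3 metastases lay below the bladder median of 5.39.

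The club cell products were the most variable of the 10, and their highest values were in bladder. Scgb1a1 read 5.05 in the treated metastasis and 4.99, 5.12, 5.17 and 5.03 in the metastases, a narrow band. It read 5.71, 5.00 and 5.80 in the treated bladders and 5.65, 5.72, 6.08, 6.01, 5.23, 4.90 and 5.95 in bladder tumor 1 to 7, so 5 tumors lay above 5.6 and 2 lay near the level of the metastases. Control bladders read 5.17, 5.35, 5.31, 5.15 and 4.93. All metastases were therefore below 6 of the 7 tumors, and bladder tumor 6 was below them all. Scgb3a2 had the widest range of the 10, 1.88, wider than that of 88.9% of genes. It read 4.98 in the treated metastasis and 4.55, 4.98, 4.82 and 5.25 in the metastases, against 4.12 to 5.99 with a median of 4.99 over the bladder arrays. Its extremes were bladder tumor 1 at the top and control bladder 4 at the bottom, and control bladder 5, at 5.79, and treated bladder 3, at 5.68, came next to the top.

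Nkx2-1, the lung factor, read 4.26 in the treated metastasis and 4.18, 4.48, 4.35 and 4.15 in the metastases, against 4.34, 4.38 and 4.73 in treated bladders, 4.20 to 5.04 with a median of 4.53 in bladder tumors, and 4.50, 4.50, 4.13, 4.59 and 4.50 in controls. All 5 metastasis arrays lay below the bladder median of 4.50, inside the bladder range. Napsa, the protease, read 5.14 in the treated metastasis and 4.90, 5.33, 5.33 and 5.07 in the metastases, against 4.91 to 5.48 with a median of 4.96 over the bladder arrays, and was the member with the highest mean in metastasis relative to bladder. Lamp3 read 4.58 in the treated metastasis and 4.69, 4.86, 4.65 and 5.33 in the metastases, against 4.64 to 5.24 with a median of 4.88 over the bladder arrays. Its lowest value of the series was therefore in the treated metastasis and its highest in metastasis 4. Ccr7, the homing receptor of the mature dendritic cells that also make Lamp3, read 5.82 in the treated metastasis and 6.39, 6.14, 6.51 and 6.58 in metastasis 1 to 4, inside the bladder range of 5.34 to 6.91. Fscn1, another gene of those cells, read 6.75 in the treated metastasis, above the highest bladder array at 6.63. It read 5.88 to 6.45 in the metastases. Neither gene was chosen by its p-value, and Fscn1 was picked after its values were seen. Cldn18 read 4.59 in the treated metastasis and 4.46, 4.63, 4.72 and 5.08 in the metastases, against 4.29 to 5.10 with a median of 4.64 over the bladder arrays. Its row does not tell the lung form from the stomach form.

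None of the 10 genes passed the test in metastasis against bladder. limma, fitted to all 30142 genes of the 19 arrays in the replicated groups with Benjamini-Hochberg adjustment, called 0.0% of genes in metastasis minus the mean of the 3 bladder groups, where 2342 genes, or 7.77%, had an unadjusted p under 0.05 and 0 of the 10 did. The means of 2 members were higher in metastasis and of 8 lower, while 43.7% of all genes had a higher mean there. The median difference was -0.10, beside -0.03 over all genes. Scgb1a1 had the largest difference, at 5.08 in metastasis and 5.44 over the bladder groups (difference -0.37 ± 0.18 SE, adjusted p = 0.646). The most positive difference was that of Napsa, 0.09 ± 0.12 SE (adjusted p = 0.848). The highest upper limit of the 95% intervals was that of Scgb3a2, at 0.40 (1.32-fold), and that of Sftpc was 0.16. Against control bladder alone the limit of Scgb3a2 was 0.62 (1.54-fold), and 0.90 without the 8 arrays that stand apart. These limits are for the mean of the metastases and set no bound on any single one. Without the 8 arrays that stand apart, 0 of the 10 passed, 1 mean was higher and 9 were lower, beside 40.4% of all genes higher. The differences in that fit ran from -0.39 to 0.07.

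**Figure D2:**
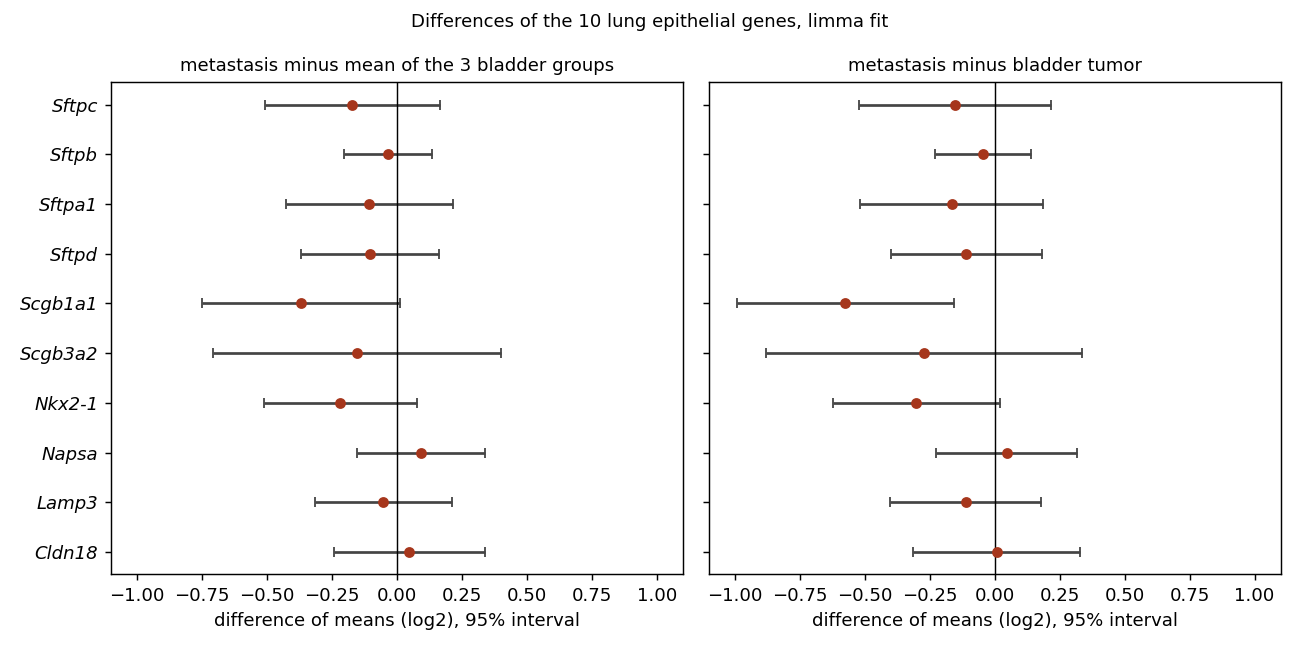
Points are differences of means (log2) of the 10 genes and bars their 95% intervals from limma, with metastasis minus the mean of the 3 bladder groups on the left and metastasis minus bladder tumor on the right. All intervals on the left include 0, and on the right that of Scgb1a1 alone (-0.99 to -0.15) does not, with an adjusted p of 0.825.

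Each bladder group was then taken alone. In metastasis minus bladder tumor 0.0% of genes were called, 6.00% had an unadjusted p under 0.05, and 1 of the 10 did: Scgb1a1, at 5.08 ± 0.08 in metastasis (n = 4) and 5.65 ± 0.44 in bladder tumor (n = 7), a difference of -0.57 ± 0.20 SE with an adjusted p of 0.825 by limma. Means of 2 of the 10 were higher in metastasis and 8 lower, beside 43.8% of all genes higher. The median difference was -0.13, beside -0.03 over all genes. Nkx2-1 came next, at 4.29 ± 0.15 in metastasis and 4.59 ± 0.32 in bladder tumor (difference -0.30 ± 0.15 SE, adjusted p = 0.825). In metastasis minus control bladder 0.0% of genes were called, 7.12% had an unadjusted p under 0.05, and 0 of the 10 did, with differences from -0.17 to 0.15. These comparisons share the metastasis arrays. In the fit without the 8 arrays that stand apart, the difference of Nkx2-1 from bladder tumor was -0.16 (limma adjusted p = 0.874) and Scgb3a2, at -0.49, came next after Scgb1a1. The differences from bladder tumor in that fit ran from -0.50 to -0.04 and those from control bladder from -0.24 to 0.20, and 0 of the 10 passed in either.

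The same genes were then compared among bladders, which hold no lung. In bladder tumor minus control bladder 0.0% of genes were called and 4.28% had an unadjusted p under 0.05, as did 1 of the 10: Scgb1a1 read 5.65 ± 0.44 in bladder tumor (n = 7) and 5.18 ± 0.17 in control bladder (n = 5), a difference of 0.47 ± 0.19 SE with an adjusted p of 0.999 by limma. Means of 9 of the 10 were higher in bladder tumor, beside 53.0% of all genes, and the median difference was 0.11. Without the 8 arrays that stand apart the difference of Scgb1a1 was 0.29 ± 0.30 SE (limma adjusted p = 0.987), no member had an unadjusted p under 0.05, and the means of 8 of the 10 were higher, beside 61.1% of all genes. In treated bladder minus bladder tumor 0.0% of genes were called, 0.488% had an unadjusted p under 0.05, and 0 of the 10 did. The largest of these differences was that of Scgb1a1, 5.50 ± 0.44 in treated bladder (n = 3) and 5.65 ± 0.44 in bladder tumor (difference -0.15 ± 0.22 SE, 95% interval -0.61 to 0.32, adjusted p = 1.0).

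The level of the 10 genes on an array is set here beside that of genes of the sense organs. The mean of 1433 chemosensory receptor genes (odour, pheromone and taste receptors) was 5.27 on bladder tumor 1, 5.16 on treated bladder 3 and 5.11 on treated bladder 1, the 3 highest of the series. On those arrays 10, 10 and 8 of the 10 lung genes lay above their own 20-array medians, as did 61.1%, 57.8% and 56.0% of all genes. The receptor mean was lowest on the treated metastasis (4.62), bladder tumor 6 (4.64) and metastasis 1 (4.67), where 2, 1 and 0 of the 10 did, beside 41.8%, 39.7% and 41.0% of all genes. The array medians over all rows had their 3 highest and 3 lowest values on the same arrays. By group it was 4.85 ± 0.12 in metastasis (n = 4), 5.02 ± 0.21 in treated bladder (n = 3), 4.93 ± 0.19 in bladder tumor (n = 7) and 4.89 ± 0.04 in control bladder (n = 5). Several arrays departed from this order. Metastasis 4 had a receptor mean of 4.90 with 8 of the 10 above their medians (46.0% of all genes) and a median deviation of 0.15, and bladder tumor 4 a receptor mean of 4.91 with a median deviation of 0.33. Metastasis 3, by contrast, had the higher receptor mean of 4.93 with 3 of the 10 above (51.1% of all genes) and a median deviation of -0.10. Control bladder 2, at 4.90, had 7 of the 10 above. Scgb1a1 departed from it too, since bladder tumor 3, 4 and 7 read 6.08, 6.01 and 5.95 at receptor means of 4.91, 4.91 and 4.85. The part of this level in the differences was not tested beyond the fit with the receptor mean as a covariate, in which 0 of the 10 passed.

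**Figure D3:**
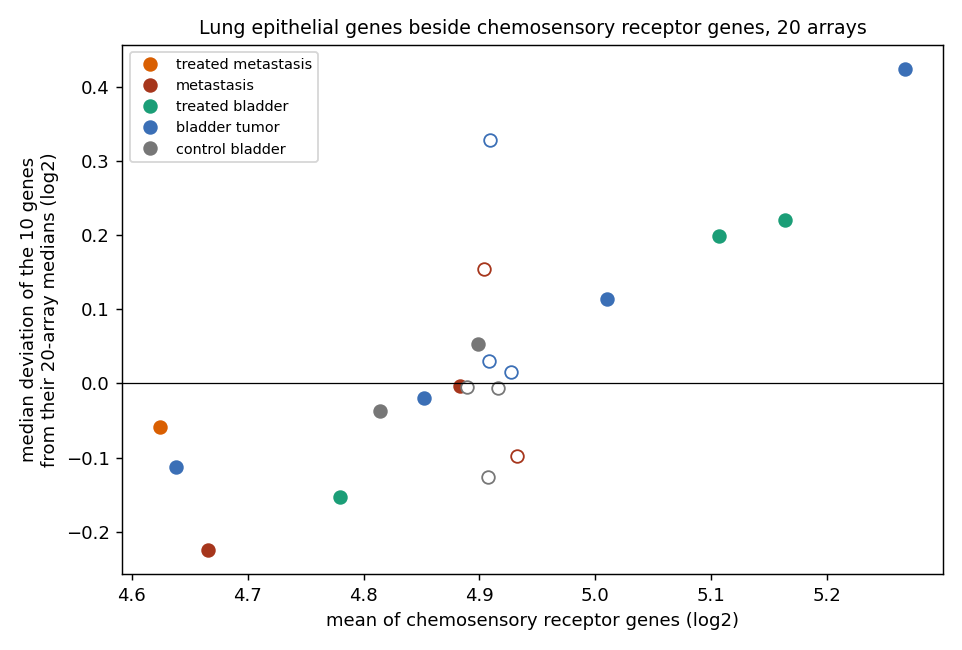
Each point is an array, with the mean of 1433 chemosensory receptor genes (log2) on the x axis and the median deviation of the 10 lung epithelial genes from their 20-array medians (log2) on the y axis; open points are the 8 arrays that correlate with no other. Bladder tumor 1 is highest on both axes, and metastasis 1 is lowest on the y axis at -0.22.

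Other genes of the lung were measured too. There were 5 further lists of lung epithelium: other type 2 genes, type 1 cells, other airway secretory genes, ciliated cells and other transcription factors. Of their 42 genes 41 were measured, and 0 passed in metastasis against all bladder groups. Means were higher for 17 and lower for 24, with a median difference of -0.04, and 43.7% of all genes had a higher mean in that comparison. Of the type 2 list Lyz1, a lysozyme, stood out: it read 9.63 in the treated metastasis and 11.0, 10.6, 7.67 and 7.70 in the metastases, against 6.45 to 8.12 over the bladder arrays. Its difference was 2.05 ± 0.49 SE (adjusted p = 0.528), and 3.89 without the 8 arrays that stand apart (adjusted p = 0.000516), where Xist differs too; against bladder tumor alone, where Xist was not called, it was 3.80 (adjusted p = 0.00104). Lyz1 has a near-identical neighbour, Lyz2 of macrophages, and the array row may read both. Slc34a2, the phosphate transporter of type 2 cells, read 6.85 in metastasis 1 against at most 5.58 in bladder, while Sftpc on that array was the lowest of the series. In the other metastases Slc34a2 read 4.95 to 5.46. Smaller excesses were seen too. The type 1 gene Ager read 6.16 in metastasis 2 against at most 5.92 in bladder, and 5.66 to 5.86 on the other metastasis arrays. On metastasis 1 Aqp5 read 5.74 against at most 5.375 in bladder, and Etv5 5.96 against at most 5.86. Ager, Aqp5 and Etv5 were picked here after their values were seen, and excesses under 1 unit were not counted over these lists. Marco, a receptor of alveolar and other macrophages, read 7.45 in metastasis 1, 6.08 to 6.15 in metastasis 2 to 4 and 6.32 in the treated metastasis, against 5.76 to 6.76 in bladder. Other alveolar macrophage genes did not follow on metastasis 1. Siglecf read 5.17, inside the bladder range of 4.87 to 5.50. Plet1 (4.94) and Krt79 (5.06) lay below the lowest bladder arrays, at 5.39 and 5.07, Krt79 only barely. Plet1 read high on bladder arrays where Upk1a was high. It read 10.84 on bladder tumor 7 (Upk1a 13.93) and 8.17 and 8.62 on control bladder 1 and 2 (Upk1a 10.96 and 12.08). Its low value on metastasis 1, where Upk1a was low, therefore cannot tell about macrophages. Chil3 and Ear2 of that list were not measured.

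Of the other lists, the second gene by p in the type 2 list was Egfl6 (-0.32, adjusted p = 0.639). In type 1 cells Igfbp2 (-0.65, adjusted p = 0.625) and the water channel Aqp5 (0.30, adjusted p = 0.640) led, in ciliated cells Ccdc39 (-0.13, adjusted p = 0.712) and Tppp3 (-0.14, adjusted p = 0.751). In the airway list Aldh1a1, a retinal dehydrogenase made in many tissues, read 8.03 in the treated metastasis and 7.16, 9.24, 6.17 and 6.03 in the metastases, against 4.82 to 6.43 in bladder (1.44 ± 0.41 SE, adjusted p = 0.605), and the other gene named, Reg3g, differed by -0.27 (adjusted p = 0.664). Among transcription factors Sox2 (-0.27, adjusted p = 0.635) and Foxp2 (-0.38, adjusted p = 0.639) led by p, and Gata6 read 8.92 in the treated metastasis and 7.04, 9.37, 7.10 and 6.63 in metastasis 1 to 4, against 5.47 to 7.85 in bladder (0.70, adjusted p = 0.681). In the lists of lung mesenchyme and capillary and of alveolar macrophages, 0 of 9 and 0 of 4 measured genes passed, led by Tbx5 (-0.58, adjusted p = 0.640), Hpgd (-0.52, adjusted p = 0.710), Krt79 (-0.32, adjusted p = 0.612) and Plet1 (-1.17, adjusted p = 0.714). Lyz1, Slc34a2, Marco and Gata6 with their per-array values were picked after those were seen.

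Of the liver list, 0 of 8 measured genes passed, while single arrays read far above the bladder. Alb, serum albumin, read 9.53 in metastasis 2, against 4.97 to 6.16 over the bladder arrays, and Fgb, a fibrinogen chain, read 9.75 there, against 4.71 to 5.81. In the treated metastasis and metastasis 1, 3 and 4 Alb read 6.86, 5.06, 5.80 and 5.57. Ahsg, the plasma protein fetuin-A, read 9.50 in the treated metastasis and 10.6, 10.4, 6.63 and 6.66 in metastasis 1 to 4, against 5.16 to 6.79 in bladder. Its difference was 2.61 ± 0.59 SE (limma adjusted p = 0.453), and 4.91 without the 8 arrays that stand apart (adjusted p = 8.12e-05), or 4.81 against bladder tumor alone (adjusted p = 0.000243). The second gene by p was Ttr (-0.58, adjusted p = 0.615). Alb, Fgb and Ahsg exceeded the highest bladder array by 2.71 to 3.95 log2 units where they were high, and the 10 lung genes by at most 0.09. The rest of the liver list did not reach 1 unit. On metastasis 2 Cps1 read 5.96 against at most 5.41 in bladder, Apoa1 5.49 against 5.06 and Apoh 5.47 against 5.06. Apoa2 read 5.60 there against 5.56, and Ttr 5.36 against 6.13. Fgb read 5.40 in the treated metastasis and 4.65, 4.74 and 5.52 in metastasis 1, 3 and 4. Alb and Fgb were picked after their values were seen.

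**Figure D4:**
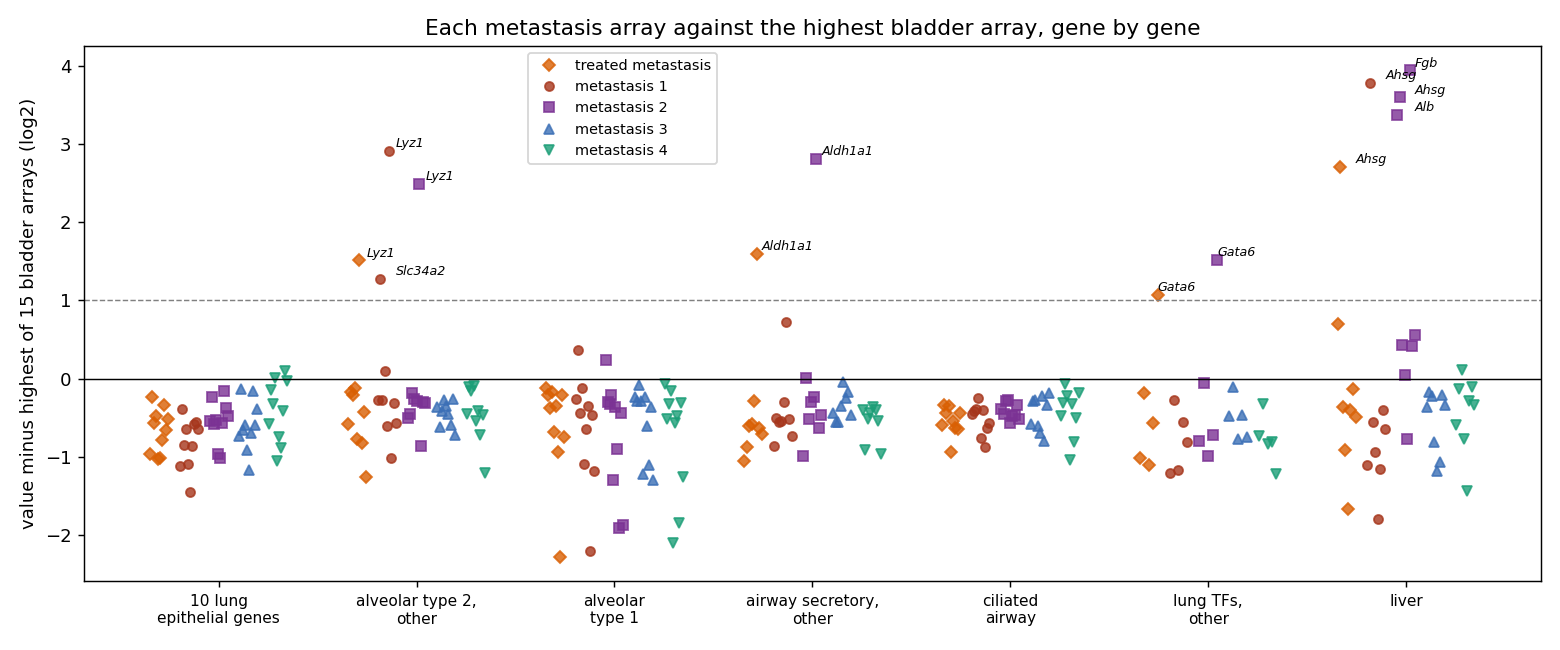
For each gene of 7 lists and each metastasis array, the value minus that gene's highest value over the 15 bladder arrays (log2) is plotted; the dashed line marks 1 unit and genes past it are named. The 10 lung epithelial genes lie at or below 0.09, while Ahsg, Fgb and Alb reach 2.71 to 3.95. In the further lung lists Lyz1 reaches 2.91, Aldh1a1 2.81, Gata6 1.52 and Slc34a2 1.28.

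Organs other than lung that make single members were looked at as well. Thyroid genes (Nkx2-1 is made there) had 0 of 4 measured members called, led by Tshr (0.14, adjusted p = 0.789) and Tg (-0.08, adjusted p = 0.806). Stomach genes (Cldn18) had 0 of 9, led by Gkn2 (0.23, adjusted p = 0.679) and Atp4a (-0.12, adjusted p = 0.699), and kidney genes (Napsa) 0 of 8, led by Umod (-0.23, adjusted p = 0.664) and Aqp2 (0.19, adjusted p = 0.716). Mature dendritic cell genes (Lamp3) had 0 of 5, led by Ccl17 (-0.32, adjusted p = 0.700) and Cd83 (0.28, adjusted p = 0.734).

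Among themselves the 10 genes moved together only loosely. Over the 20 arrays, which share their processing, the 45 pairs had a median Pearson r of 0.38, from -0.14 to 0.72. The genes most like the 3 widest-ranging members were Ccdc166, Glis1 and Cfap74 for Scgb3a2 (r = 0.87, 0.87 and 0.86), Fbxw28, Lmod3 and Prss30 for Scgb1a1 (r = 0.88, 0.86 and 0.86), and Gpr141b, the odour receptor Olfr1205 and Slc26a1 for Sftpc (r = 0.85, 0.85 and 0.84). All 9 stayed at or below 5.88 on every array. The SD of Sftpc was 0.34 over the 8 arrays that stand apart and 0.24 over the other 12, and that of Scgb3a2 0.52 and 0.43. Sftpd (0.19 and 0.22) and Napsa (0.19 and 0.20) went the other way, and Sftpb had 0.11 in both. The remaining members had a higher SD over the 8 arrays, while the median SD of all genes was 0.25 there and 0.26 over the other 12.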

How the data were processed

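The RNA kit was one for fixed, embedded tissue and the input 12 ng of total RNA, as the labels' protocols say. Deposited values are log2 expression from RMA, run by the authors in Expression Console (Affymetrix) per the submitters' processing notes. The build and the versions are not given in these sources. RMA values do not show differences in total RNA. The table has 65956 rows; without scanner files, signal over background is unknown, and the number of arrays limits the precision.

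Rows were named by the platform annotation (30604 with 1 symbol, 2146 with several, left out, and 33206 unnamed here), updated by gene ID through a GRCm38.p6 table (827 rows). For genes with several rows the one with the highest mean was kept. Group means were fitted with lmFit and eBayes of limma 3.58.1 under R 4.3.3 to the 19 arrays of 4 replicated groups without covariates; two-sided p-values were adjusted over all 30142 genes in each of 5 comparisons and called under 0.05. The treated metastasis, a single sample, entered no test. The fit was tested on simulated data. All 10 members are named; from each list the 2 genes with the smallest p, since none was called; and for the 3 members with the widest range the 3 genes of highest Pearson r, leaving out predicted and small RNA genes. Members and lists were chosen with earlier results of these data known. Alternatives were a fit of the compared groups, weights for arrays, a robust trended prior, mean rows, no dim genes, median centring, the receptor mean as covariate, the replicate number as block, leaving out the 8 arrays that stand apart, and leaving out each array.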

Additional observations from a re-analysis of the deposited data

Results flagged for a closer look

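Of 30 sets of a member and a group of 4 to 7 arrays, 2 held an array whose gap to its nearest neighbour took up an unusually large part of the group's range; chance gives about 1 in 20. Nkx2-1 in control bladder 4 read 4.13, with the next lowest control bladder at 4.50. Napsa in control bladder 6 read 5.37, with the next highest at 4.95. Both arrays belong to the 8 that stand apart. No metastasis was singled out in this way for any of the 10 genes. Sftpd in metastasis 4 fell only just short of the limit, at 5.73 with the next highest metastasis at 5.19.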

How the results depend on the processing

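In 806 values of the 30 differences of the 10 genes (metastasis minus all bladder groups, metastasis minus bladder tumor, and bladder tumor minus control bladder) under the alternatives, 0 passed; the lowest adjusted p was 0.325, for Scgb1a1 in metastasis minus all bladder groups with array weights (-0.45). Direction was the same in 772. Values that turned were at most 0.20 in size: with arrays centred on their medians Sftpb (0.0313) and Lamp3 (0.0132) against all bladder groups and Sftpb (0.0128) against tumor; with the receptor mean as covariate Sftpa1 (0.0139), Scgb3a2 (0.0362) and Lamp3 (0.0046) against all bladder groups and Sftpd (-0.0027) in tumor minus control; without the 8 arrays that stand apart Cldn18 (-0.14) against all bladder groups, Napsa (-0.0388) and Cldn18 (-0.20) against tumor, and Sftpc (0.0531), Sftpb (-0.0002) and Nkx2-1 (-0.0119) in tumor minus control. The cause was not tested. The replicate block turned Cldn18 against all bladder groups (-0.0575) and tumor (-0.12) and Sftpc in tumor minus control (0.0328), and called 0 genes in every comparison. Same-numbered arrays had correlations of their deviations from -0.51 to 0.44 over 20 pairs, beside -0.55 to 0.49 over 111 pairs of different number. Whether same-numbered samples came from the same animal cannot be told from these values, since many pairs include arrays that correlate with no other. With 1 array left out, ranges that crossed 0 were -0.0694 to 0.135 (Cldn18), -0.20 to 0.0256 (Lamp3) and -0.0657 to 0.0206 (Sftpb) against all bladder groups, -0.11 to 0.0943 (Cldn18), -0.0115 to 0.13 (Napsa) and -0.0772 to 0.0091 (Sftpb) against tumor, and -0.0936 to 0.13 (Sftpc) and -0.0098 to 0.0912 (Sftpd) in tumor minus control.

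Counts of called genes, 0 in each comparison, moved little, and 0 members were among them. In metastasis minus tumor it was 2 with array weights and without dim genes (Defb5 and Hnrnph2, fewer genes being tested in the second), 1 with the receptor mean (Hnrnph2) and 4 without the 8 arrays (Ahsg, Ctsk, Lyz1 and Prg4). In metastasis minus control it was 1 with the 2 groups alone (Gm3534), 3 with the receptor mean (Alyref2, Gm3534 and Zfp354b) and 5 without the 8 arrays. Without the 8 arrays it was 7 in metastasis minus all bladder groups and 1, Xist, in tumor minus control. With 1 array left out counts ran from 0 to 2 against all bladder groups (2 without metastasis 4), 0 to 2 against tumor (2 when either control bladder 5 or bladder tumor 6 was left out) and 0 to 1 against control (1 without bladder tumor 1). The count of members above all bladder arrays stayed at 0 on 4 metastasis arrays under centring, mean rows and leaving out the bladder arrays that stand apart; on metastasis 4 it was 3 with centring and 2 otherwise. The fit of the compared groups is the same fit for metastasis minus all bladder groups, and members below the limit for dim genes gave no value there.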

Other observations

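The genes of the bladder's own tissues were lower on average in metastasis. Of 11 urothelial genes 10 had a lower mean in metastasis than over the bladder groups, with a median difference of -1.03. Of 8 smooth muscle genes 8 did, with a median of -1.15, and 0 passed in either list. Over all genes 43.7% had a higher mean in metastasis, with a median difference of -0.03. Krt5, the keratin of basal cells, averaged 5.79 in metastasis and 7.32 over the bladder groups (limma adjusted p = 0.632), and Upk1a 6.61 and 9.01 (adjusted p = 0.640). Des, desmin, averaged 5.78 in metastasis and 6.64 over the bladder groups (adjusted p = 0.640), and Cnn1, calponin, 5.41 and 6.57 (adjusted p = 0.642). In metastasis 1 to 4 Krt5 read 4.93, 5.31, 6.33 and 6.60, and Upk1a 5.31, 5.84, 7.87 and 7.42. Des read 5.47, 5.17, 6.24 and 6.23 there, and Cnn1 4.53, 5.07, 6.07 and 5.95. For these genes the lower averages rest mostly on metastasis 1 and 2. Upk1b, at 8.52, 11.59, 9.82 and 10.04, did not split this way. Metastasis 3 and 4 belong to the 8 arrays that stand apart, and these lists were not summarised without those arrays.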
